A study of Mus musculus with 35 samples.

Results

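Transcripts of 10 BCL2 family genes were followed while mouse embryonic stem (ES) cells were converted towards primitive endoderm (PrE) by GATA6, and after knockdown of Oct4 (Pou5f1) during that conversion. The genes were taken by name from the gene column of each expression table: the survival genes Bcl2, Bcl2l1 and Mcl1, the pore-forming effectors Bax and Bak1, and the BH3-only genes Bcl2l11, Bid, Bad, Bbc3 and Pmaip1. All 10 were among the 44853 gene symbols of the induction table, and 4 of the 10 (Bid, Bcl2l11, Bad and Bcl2l1) were in the small interfering RNA (siRNA) table, of which 6264 genes could be tested. That table had been limited by the study to genes it called responsive to GATA6 in the induction libraries, so the 4 members it holds had been chosen for their response to Dox.

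The untreated group was KH2 ES cells of mixed C57BL/6 x 129/Sv background carrying a doxycycline (Dox)-inducible Gata6 cassette, and the induced groups were the same cells after 16, 24, 48, 72, 96 and 168 h with 1 µg/mL Dox, with 3 libraries in each of these 7 groups. XEN cells, a wild-type line of CD1 background derived from extra-embryonic endoderm and not treated with Dox, gave 2 libraries. Inducible cells of a single clone that received a control siRNA pool (siCTL) or an Oct4 siRNA pool (siOct4) and 48 h of Dox gave 6 libraries per group. ES cells were grown with LIF on mitotically inactivated fibroblast feeders, which were removed by adsorption before lysis. XEN cells were grown on feeders without LIF. The study's methods name 2-mercaptoethanol for the ES medium and not for the XEN medium. XEN cells thus differed from the induced cells in strain background, transgene, Dox, LIF and, as described, 2-mercaptoethanol together, and these cannot be told apart. The values were RSEM transcript levels (TPM), which are scaled for transcript length, so levels can be set side by side between genes; read depth per library cannot be read from TPM and is unknown.

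Apoptosis through mitochondria is set by 3 kinds of BCL2 family protein. BAX and BAK form pores in the outer mitochondrial membrane that release cytochrome c, the survival proteins BCL2, BCL-XL (from Bcl2l1) and MCL1 hold them in check, and BH3-only proteins such as BIM (from Bcl2l11), BID, BAD, PUMA (from Bbc3) and NOXA (from Pmaip1) either neutralise the survival proteins or activate the effectors. ES cells are known to be primed for mitochondrial apoptosis, and cells that are lost during lineage sorting in the early embryo are removed by apoptosis. Transcript levels do not report the amount, cleavage, phosphorylation or location of these proteins, on which much of their control rests.

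The labels were checked first. Gata6 lay between 0.193 and 0.375 TPM in untreated cells, between 129 and 138 TPM after 16 h of Dox and between 317 and 369.6 TPM after 168 h. Pou5f1, the gene of OCT4, lay between 1558 and 1833 TPM in untreated and between 0.0506 and 0.354 TPM in XEN cells. The summed level of 9 PrE and XEN marker genes went from 41.1 to 55.1 TPM at 0 h to 13542 to 14231 TPM at 168 h, while that of 8 ES cell marker genes went from 3005 to 3255 TPM to 220.0 to 304 TPM. In the siRNA experiment Pou5f1 averaged 957 ± 183 TPM under siCTL, against 331 ± 44.4 TPM under siOct4 (SD over 6 libraries per group). Of 10 fibroblast marker genes, 7 to 10 had a group mean of at least 1 TPM in every induction group, and in 6 of the 7 groups of the time course their summed level was highest in replicate 3. The highest of all was replicate 3 of 168 h (284 TPM, against 131 to 134 TPM in the other 168 h libraries), where Pou5f1 was also highest of its group (112 TPM, against 39.1 TPM in both others). In bulk RNA, fewer cells of a type and less RNA per cell cannot be told apart, and the part of remaining ES cells or feeders in the results was not tested.

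**Figure D1:**
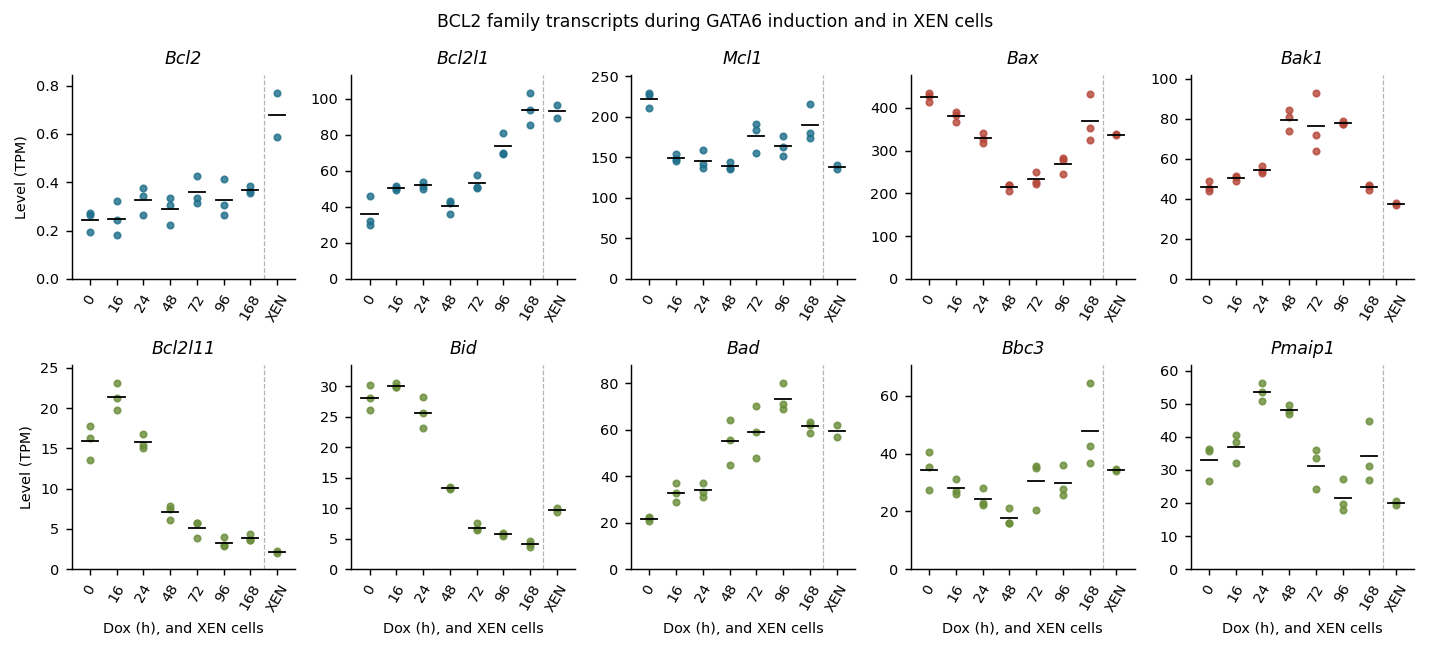
Level in TPM of each of the 10 members in every library of the induction experiment, by hours of Dox and in XEN cells; points are libraries, black bars are group means, blue marks survival genes, red effectors and green BH3-only genes, and each axis starts at 0 with its own scale. Bid and Bcl2l11 stepped down from 24 to 48 h and stayed low, Bad and Bcl2l1 ended higher than they began, and Bax and Bak1 departed from their 0 h levels in opposite directions at 48 to 96 h.

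Of the 10 members, 9 had a group mean of at least 1 TPM in some induction group and entered the test, a linear model (limma) of log2(TPM + 1) across 15057 genes. A gene is said to have changed, risen or fallen where its Benjamini-Hochberg adjusted p over all tested genes was under 0.05, and to have been called where the difference also exceeded 1 on the log2 scale. Against 0 h, none of the 9 tested members was called at 16 h, where 2.77% of all tested genes were, and none at 24 h, where 5.68% were. At 48 h, 3 members were called (16.4% of all genes), with Bad higher and Bid and Bcl2l11 lower, and at 72 h the same 3 were called (26.2% of all genes). Bcl2l1 joined them at 96 h, giving 4 called members (29.5% of all genes), and these 4 were also the ones called at 168 h (39.1%) and in XEN cells against 0 h (37.6%). Calls near the limit of 1 were the unsteady ones. At 48 h Bid (-1.02) lost its call without replicate 1 and Bcl2l11 (-1.05) without replicate 2, Bax was added when libraries were rescaled by median ratios, and Bax and Bbc3 were added without replicate 3 (5 called). At 96 h Bcl2l1 (1.03) was lost under that rescaling, which turned 2 higher and 2 lower calls into 1 and 2, and without replicate 1 or 2. A share of 4 in 9 stands near the share of all genes called in these last 2 comparisons. The comparisons against 0 h share their control libraries, so their values stand side by side and are no independent repeats of each other.

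Without the minimum on the size of the difference, 3 members had changed by 16 h (12.9% of all tested genes) and 5 by 24 h (28.5%). The 48 h cells differed in 8 members (53.7%), the 72 h cells in 7 (65.6%) and the 96 h cells in 8 (67.3%). For 168 h the count was 6 (75.0%) and for XEN cells 8 (71.2%). The 3 that had changed by 16 h were Mcl1, which fell, and Bad and Bcl2l1, which rose. By 24 h Bax had also fallen and Pmaip1 had risen. These counts moved with single replicate numbers. With replicate 1, 2 or 3 left out of every group, the 16 h count became 0, 1 and 6, the 24 h count 2, 2 and 8, the 48 h count 6, 6 and 9 and the 168 h count 5, 4 and 7. The XEN count became 5 without replicate 1 and without replicate 2, which left 1 XEN library assumed to vary like the other groups, and Bak1, Bax and Pmaip1 were lost. The median log2 difference of the 9 tested members from 0 h was -0.68 at 48 h and -0.01 at 168 h, beside medians of 0.00 and 0.09 over all tested genes.

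**Figure D2:**
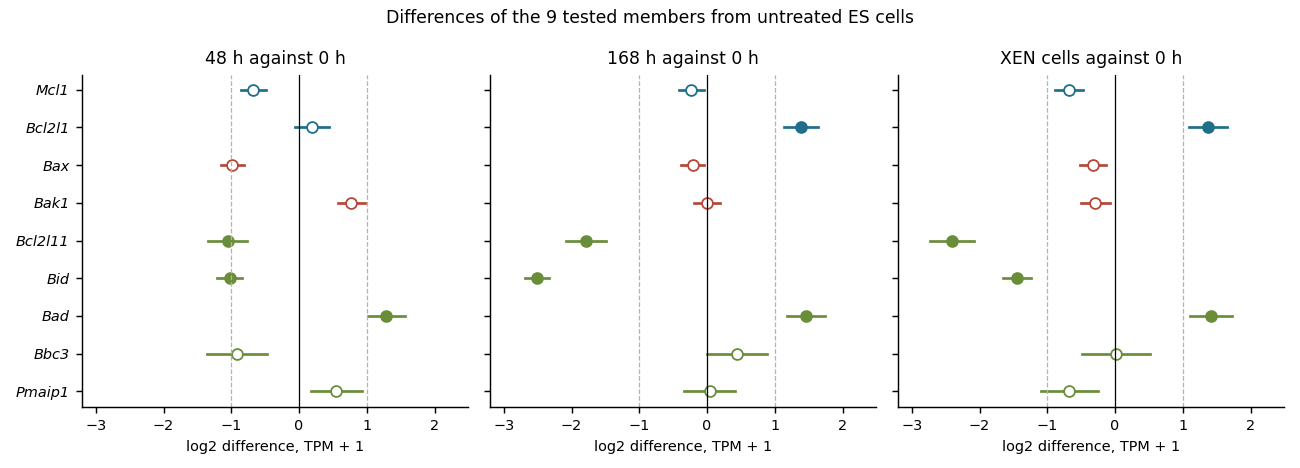
Difference of the 9 tested members from untreated ES cells on the log2(TPM + 1) scale at 48 h, at 168 h and in XEN cells; circles are limma estimates, lines are 95% confidence intervals, filled circles were called, and dashed lines mark a difference of 1. At 48 h 8 of the 9 had changed, some by less than 1, whereas at 168 h Bak1, Bbc3 and Pmaip1 had intervals that reached 0.

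Bid encodes a BH3-only protein that links death receptor signalling to mitochondria after cleavage by caspase-8. It lies on the minus strand at chr6:120891930-120916853 (mm10) and overlaps a gene of the same strand, Gm44260, and Bcl2l13 and Gm17812 on the opposite strand. The untreated libraries read 30.1, 28.0 and 26.1 TPM, those of 16 h 29.9, 29.8 and 30.4 TPM and those of 24 h 25.5, 23.1 and 28.2 TPM, so that 0 h overlapped both. The level was then 13.1, 13.4 and 13.5 TPM at 48 h. The 72 h libraries read 6.60, 6.34 and 7.50 TPM, the 96 h libraries 5.79, 5.98 and 5.44 TPM and the 168 h libraries 3.70, 4.56 and 4.08 TPM. From 48 h onwards every group lay wholly below the time before it, with no overlap between neighbours. At 168 h the group mean was 6.83-fold below 0 h, a difference of -2.51 ± 0.09 on the log2 scale (SE, limma adjusted p = 4.59e-15), the largest among the tested members. XEN cells did not share this endpoint, since Bid read 9.34 and 10.03 TPM there. That was 2.90-fold below 0 h (log2 difference -1.44 ± 0.10, limma adjusted p = 1.01e-10) and above every 72, 96 and 168 h library.

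Bcl2l11 encodes BIM, a BH3-only protein that binds all survival members and is known to be restrained by growth factor signalling through ERK. It lies on the plus strand at chr2:128126038-128162547 and overlaps no annotated gene. It read 17.8, 16.3 and 13.5 TPM in untreated cells, 21.2, 23.1 and 19.7 TPM after 16 h and 15.4, 15.1 and 16.8 TPM after 24 h. All 16 h libraries thus stood above all 0 h libraries, but the difference of 0.41 ± 0.14 on the log2 scale had an adjusted p of 0.0565 (limma). The 48 h libraries read 7.83, 6.10 and 7.44 TPM and the 72 h libraries 5.67, 5.75 and 3.83 TPM. Then came 2.96, 2.93 and 3.96 TPM by 96 h, 3.67, 4.30 and 3.61 TPM by 168 h, and 2.02 and 2.296 TPM in XEN cells. Every library from 48 h onwards lay below every library of the first 24 h. The group mean at 168 h was 4.11-fold below 0 h (log2 difference -1.79 ± 0.14, limma adjusted p = 5.90e-10) and that of XEN cells 7.34-fold below (log2 difference -2.41 ± 0.15, limma adjusted p = 4.77e-11). The means of 72, 168 and 96 h stood next to each other in the order of levels and the libraries of neighbours overlapped. The step down from 72 to 96 h passed the test with all libraries (log2 difference -0.50, limma adjusted p = 0.0216) but not without replicate 1 or without replicate 2.

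Bad, whose BH3-only product binds BCL2 and BCL-XL and is held inactive by phosphorylation when growth factors are present, went the other way. The gene lies on the plus strand at chr19:6941861-6951899 and overlaps Gpr137 on the opposite strand. It read 20.5, 22.5 and 22.03 TPM in untreated cells and 32.7, 28.7 and 37.3 TPM after 16 h, so the 2 groups were already apart (log2 difference 0.57 ± 0.13, limma adjusted p = 0.00558), although this difference did not pass without replicate 1 or without replicate 2. The 24 h libraries read 33.4, 31.1 and 37.2 TPM, those of 48 h 64.4, 55.5 and 45.0 TPM and those of 72 h 47.7, 58.9 and 70.3 TPM. The highest group was 96 h with 68.8, 71.3 and 80.0 TPM, followed by 168 h with 63.5, 58.8 and 62.1 TPM and XEN cells with 56.7 and 62.1 TPM. The 96 h mean was 3.38-fold and the 168 h mean 2.83-fold the 0 h mean, with a log2 difference at 168 h of 1.46 ± 0.13 (limma adjusted p = 5.88e-09). The 96 h libraries stood above all 168 h libraries, although the step between these times did not pass the test (log2 difference -0.25 ± 0.13, limma adjusted p = 0.135), and XEN, 72 h and 48 h libraries overlapped their neighbours in the order of levels.

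The remaining BH3-only genes, both known as p53 targets, changed at early or middle times and did not pass the test at 168 h with all libraries. Bbc3, the gene of PUMA, read 40.4, 35.3 and 27.5 TPM in untreated cells and 16.1, 15.9 and 20.998 TPM after 48 h, its lowest group (log2 difference -0.92 ± 0.21, limma adjusted p = 0.00116). At 168 h it read 36.8, 42.6 and 64.3 TPM, which overlapped 0 h (log2 difference 0.44 ± 0.21, limma adjusted p = 0.0658). Without replicate 3 of that time it was 0.22, and without replicate 1 of every group it passed (0.73, limma adjusted p = 0.0376). The highest 168 h value came from replicate 3, the library with the highest fibroblast marker sum. Pmaip1, the gene of NOXA, which neutralises MCL1, read 35.6, 36.2 and 26.7 TPM in untreated cells and was highest in the 24 h libraries with 56.1, 53.4 and 50.8 TPM (log2 difference 0.70 ± 0.18, limma adjusted p = 0.00599). By 96 h it read 17.8, 19.6 and 27.3 TPM and had fallen below 0 h (log2 difference -0.59 ± 0.18, limma adjusted p = 0.00634), although the highest 96 h library lay above the lowest 0 h library. These 3 differences, of Bbc3 at 48 h and of Pmaip1 at 24 and 96 h, were each lost without replicate 1 and without replicate 2. At 168 h it read 26.9, 31.1 and 44.7 TPM and in XEN cells 20.7 and 19.3 TPM. The difference of Pmaip1 at 168 h was 0.04 ± 0.18 (limma adjusted p = 0.859) and took a negative sign (-0.16) without replicate 3 of that time.

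The summed level of the 5 BH3-only genes stayed between 125 and 153 TPM in group mean across the 8 groups, while its make-up differed. Bid made up 21.2 ± 1.21% of the BH3-only sum in untreated cells and 2.75 ± 0.47% after 168 h (SD over 3 libraries). For Bcl2l11 these shares were 11.9 ± 0.33% and 2.60 ± 0.52%, and for Bad 16.5 ± 2.41% and 41.2 ± 6.24%. In XEN cells Bad made up 46.2% and 48.4%, and Bid 7.61% and 7.82%, of the sum in the 2 libraries. These shares are descriptions and were not tested.

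Bax, the most abundant member, read 429, 435 and 413 TPM in untreated cells, 384, 391 and 367 TPM after 16 h and 317, 328 and 340.2 TPM after 24 h. Its lowest values were the 219, 205 and 220.0 TPM of 48 h. It lies on the minus strand at chr7:45461697-45466898, with Gm45808 on the same strand overlapping it. The 48 h mean was 1.98-fold below 0 h, and the log2 difference of -0.98 ± 0.08 (limma adjusted p = 7.33e-09) stopped just short of a call. The 72 h libraries read 228, 222 and 251 TPM and the 96 h libraries 279, 283 and 246 TPM. Those of 168 h read 353, 324 and 432 TPM and overlapped 0 h, and XEN cells read 337 and 338 TPM. Between 96 and 168 h Bax rose by 0.45 ± 0.08 on the log2 scale (limma adjusted p = 0.000231), and at 168 h it was still lower than at 0 h by the test (log2 difference -0.21 ± 0.08, limma adjusted p = 0.0259; -0.40 after the rescaling), but not without replicate 1 or without replicate 2.

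Bak1, the other effector, traced the opposite course. It lies on the minus strand at chr17:27019810-27029009 and overlaps Ggnbp1 on the opposite strand. The untreated libraries read 44.0, 49.2 and 45.3 TPM, those of 16 h 51.2, 48.8 and 50.8 TPM and those of 24 h 56.4, 54.0 and 52.7 TPM. Higher values came with 48 h (80.7, 84.3 and 73.7 TPM), 72 h (63.96, 72.0 and 92.8 TPM) and 96 h (77.2, 79.1 and 77.6 TPM). At 168 h they were back at 44.6, 46.4 and 46.8 TPM, within the range of 0 h, and XEN cells read 37.9 and 37.1 TPM, below every library of the time course. The rise at 48 h was 0.77 ± 0.09 (limma adjusted p = 8.94e-07) and the fall between 96 and 168 h was -0.75 ± 0.09 (limma adjusted p = 3.51e-06) on the log2 scale. The 3 elevated times could not be ordered, since their libraries overlapped.

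The ratio of Bax to Bak1 TPM was 9.24 ± 0.47 in untreated cells (SD over 3 libraries, as for the times that follow), 7.58 ± 0.40 after 16 h and 6.05 ± 0.41 after 24 h. By 48 h it was 2.71 ± 0.28, by 72 h 3.12 ± 0.43 and by 96 h 3.45 ± 0.25. It was back to 8.05 ± 1.12 by 168 h, and 8.90 and 9.12 in the 2 XEN libraries. Every 48, 72 and 96 h library had a ratio of at most 3.61 and every other library one of at least 5.63. The ratio is a description of the same values and was not tested.

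**Figure D3:**
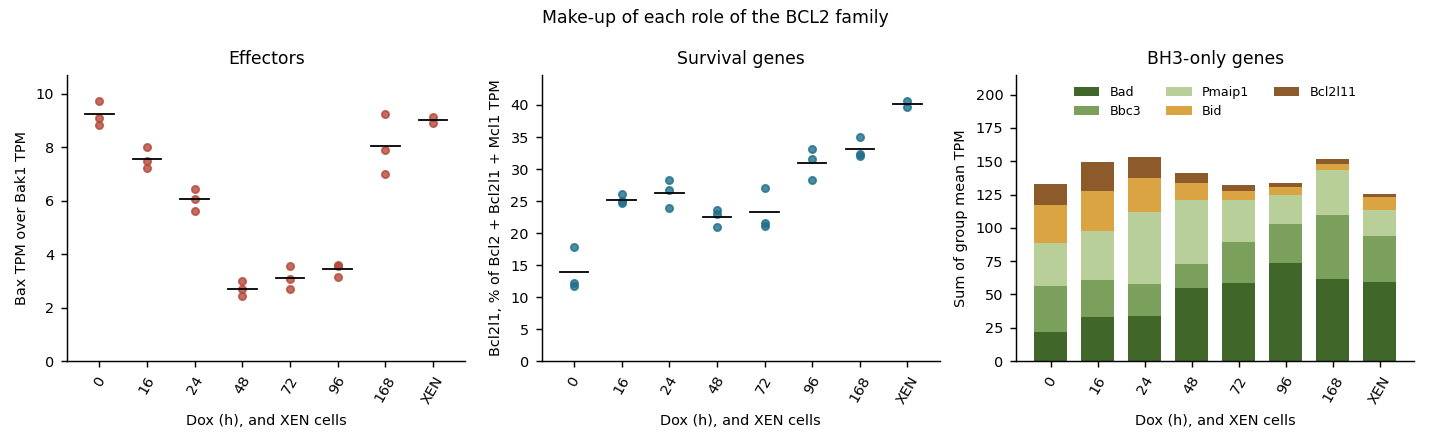
Left, ratio of Bax to Bak1 TPM; middle, share of Bcl2l1 in the summed TPM of Bcl2, Bcl2l1 and Mcl1, in percent; right, summed group mean TPM of the 5 BH3-only genes; the x axes give hours of Dox and XEN cells. Points are libraries and black bars group means. The ratio was between 2.43 and 3.61 in all libraries of 48 to 96 h, and the Bcl2l1 share was highest in XEN cells. By group mean, but not in every library, Bad was the largest of the 5 BH3-only genes from 48 h onwards.

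Of the survival genes, Mcl1 was the most abundant in every library, and its short-lived product is known to be needed for survival of early embryos. It read 229, 227 and 211 TPM in untreated cells and 146, 154 and 148 TPM after 16 h, a fall of -0.57 ± 0.09 on the log2 scale (limma adjusted p = 0.000122) with no overlap between the groups, which did not pass without replicate 1. The 24 h libraries read 142, 136 and 159 TPM, those of 48 h 137, 144 and 135 TPM, those of 72 h 184, 190.5 and 155 TPM and those of 96 h 152, 163 and 177 TPM. All of these lay below 0 h. At 168 h Mcl1 read 180.1, 174 and 216 TPM, the last of these from replicate 3 and inside the 0 h range (log2 difference -0.23 ± 0.09, limma adjusted p = 0.0228; -0.41 after the rescaling). That difference did not pass without replicate 1 (-0.17, limma adjusted p = 0.278) or without replicate 2 (-0.16, limma adjusted p = 0.297). XEN cells read 136 and 140.3 TPM. Every neighbouring pair in the order of the 8 group means overlapped.

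Bcl2l1, which encodes the survival protein BCL-XL and, by splicing, the pro-apoptotic BCL-XS, was higher at 168 h than at 0 h after an uneven course. Values per gene cannot separate these isoforms. The gene lies on the minus strand at chr2:152780668-152831728 and overlaps no other annotated gene. It read 32.0, 30.01 and 45.99 TPM in untreated cells and 51.5, 50.5 and 49.1 TPM after 16 h. The 24 h libraries read 51.7, 54.0 and 50.1 TPM and the 48 h libraries 42.4, 43.1 and 36.0 TPM. The 0 h group was spread by replicate 3, and 48 h overlapped it. The step from 24 to 48 h was -0.35 ± 0.12 on the log2 scale (limma adjusted p = 0.0260) and did not pass without replicate 1 or without replicate 2, nor did the rise at 16 h. Levels then reached 50.7, 51.0 and 57.8 TPM by 72 h, 70.2, 81.0 and 69.6 TPM by 96 h and 85.3, 93.7 and 103 TPM by 168 h. XEN cells, with 89.6 and 96.8 TPM, overlapped 168 h. The 168 h mean was 2.61-fold the 0 h mean (log2 difference 1.38 ± 0.12, limma adjusted p = 3.33e-09) and the XEN mean 2.59-fold (log2 difference 1.37 ± 0.13, limma adjusted p = 2.29e-08).

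Bcl2 itself was low in every group. Its libraries lay between 0.182 and 0.426 TPM over the time course and at 0.586 and 0.769 TPM in XEN cells, under the 1 TPM minimum, so it was not tested. Both XEN libraries were above all others, and among the 7 groups of the time course neighbouring levels overlapped. Bcl2 made up at most 0.323% of the summed TPM of the survival genes in any library.

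The summed TPM of the 3 survival genes among the members was thus nearly all Mcl1 and Bcl2l1. The share of Bcl2l1 in this sum was 13.9 ± 3.42% in untreated cells, 25.2 ± 0.75% after 16 h and 22.5 ± 1.35% after 48 h. It was 31.0 ± 2.52% by 96 h and 33.1 ± 1.62% by 168 h (SD over 3 libraries), with 39.7% and 40.7% in XEN cells. The summed level of the 3 survival genes was 259 ± 2.49 TPM in untreated cells, 179 ± 7.94 TPM after 48 h and 284 ± 30.5 TPM after 168 h. That of the effectors was 472 ± 12.5 TPM, 294 ± 4.99 TPM and 416 ± 56.5 TPM for the same groups (SD over 3 libraries). Both sums were lowest at 48 h among the time course groups. These sums were not tested.

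The steps between successive times were tested in the same model. From 16 to 24 h no tested member was called or had changed (0.352% and 2.59% of all genes). From 24 to 48 h Bcl2l11 was called (5.56% of all genes) and 6 members had changed (37.5%), namely Bid, Bcl2l11, Bax and Bcl2l1 downwards and Bad and Bak1 upwards. The call of Bcl2l11 was lost without replicate 2. From 48 to 72 h none was called (3.33%) and 6 had changed (29.6%), with Bid, Bcl2l11 and Pmaip1 lower and Bbc3, Bcl2l1 and Mcl1 higher. From 72 to 96 h none was called (1.71%) and 2 had changed (16.5%), Bcl2l1 upwards and Bcl2l11 downwards. From 96 to 168 h none was called (7.67%) and 6 had changed (42.7%), with Bax, Bbc3, Bcl2l1 and Pmaip1 higher and Bak1 and Bid lower. Without replicate 3 of 168 h, Bax, Bak1 and Bid still passed this last step and Bbc3, Bcl2l1 and Pmaip1 did not (limma adjusted p = 0.135, 0.104 and 0.0596). Without replicate 3 of 72 h, which had the lowest correlation with its group, Bid, Bbc3 and Mcl1 still passed the step from 48 to 72 h, Bcl2l1, Bcl2l11 and Pmaip1 did not, and Bak1 did. With replicate 1, 2 or 3 left out of every group, the number of changed members became 0, 0 and 3 for 16 to 24 h, 5, 4 and 7 for 24 to 48 h, and 1, 1 and 6 for 48 to 72 h. For 72 to 96 h it became 0, 0 and 8, and for 96 to 168 h 2, 3 and 8. Bid passed the 48 to 72 h step, and Bax and Bak1 the 96 to 168 h step, in each of these fits, and Bbc3 was called from 48 to 72 h without replicate 3.

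XEN cells were also set against the 168 h cells, the end of the induced conversion. Here 1 member was called, Bid, which was higher in XEN cells by 1.07 ± 0.10 on the log2 scale (limma adjusted p = 4.73e-08), beside 13.9% of all genes called. In all, 5 members had changed (50.0% of all genes), and apart from Bid they were lower in XEN cells: Pmaip1 (-0.72 ± 0.20), Bcl2l11 (-0.62 ± 0.15), Mcl1 (-0.45 ± 0.10) and Bak1 (-0.29 ± 0.10). Bid kept its call without any 1 replicate number, but only 2 members had changed without replicate 1 (Bid and Pmaip1) and without replicate 2 (Bid and Mcl1), and Bak1 was lost under the rescaling and without replicate 3 of 168 h. The median difference over all genes was itself -0.14 on this scale. Bad (-0.05), Bcl2l1 (-0.01), Bax (-0.12) and Bbc3 (-0.43) did not pass, which does not show that their levels were equal, and the 95% interval of the difference was -0.36 to 0.26 for Bad and -0.29 to 0.27 for Bcl2l1. Under the rescaling Bad (0.12), Bcl2l1 (0.16) and Bax (0.050) took a positive sign.

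The start sites of the 4 called members were looked at because these genes moved together or apart at the same times. The sequences upstream of the starts, which lie outside annotated exons, are shown 5′ to 3′ on the strand of each gene as given by RefSeq for GRCm38.p6, with capitals marking matches in either orientation to GATAA (a core letter string of GATA factor sites), CACGTG (an E-box) or GGGCGG (a GC box), 3 strings that do not overlap each other in these windows. The first is the window of Bid at chr6:120916854-120917074 on the minus strand, then Bcl2l11 at chr2:128125788-128126037 on the plus strand, Bad at chr19:6941611-6941860 on the plus strand and Bcl2l1 at chr2:152831729-152831978 on the minus strand.
Bid: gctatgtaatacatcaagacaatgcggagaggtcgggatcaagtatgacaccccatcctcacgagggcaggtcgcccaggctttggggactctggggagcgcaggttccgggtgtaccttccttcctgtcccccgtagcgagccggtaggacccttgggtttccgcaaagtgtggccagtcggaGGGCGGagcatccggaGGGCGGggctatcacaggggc
Bcl2l11: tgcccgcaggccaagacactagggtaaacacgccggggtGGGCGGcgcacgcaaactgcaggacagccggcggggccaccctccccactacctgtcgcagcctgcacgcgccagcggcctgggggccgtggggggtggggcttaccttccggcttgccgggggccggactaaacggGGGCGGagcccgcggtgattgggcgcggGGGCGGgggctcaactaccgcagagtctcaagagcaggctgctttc
Bad: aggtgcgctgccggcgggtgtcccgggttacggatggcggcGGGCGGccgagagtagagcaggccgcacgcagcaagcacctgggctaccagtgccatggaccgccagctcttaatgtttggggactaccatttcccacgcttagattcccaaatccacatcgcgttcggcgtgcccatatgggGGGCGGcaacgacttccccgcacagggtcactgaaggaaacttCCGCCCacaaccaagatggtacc
Bcl2l1: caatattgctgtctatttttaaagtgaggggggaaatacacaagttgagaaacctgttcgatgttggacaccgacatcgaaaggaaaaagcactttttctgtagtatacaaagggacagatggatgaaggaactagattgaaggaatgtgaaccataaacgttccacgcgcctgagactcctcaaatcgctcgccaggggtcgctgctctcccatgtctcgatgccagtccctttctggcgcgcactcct
Bid, Bcl2l11 and Bad, which were called in different directions, all held GGGCGG matches and no GATAA or CACGTG match in these stretches, and the Bcl2l1 stretch held none of the 3. The GC content of the printed stretches was 62.4% for Bid, 72.0% for Bcl2l11, 62.8% for Bad and 47.6% for Bcl2l1. Among 32851 RefSeq windows of 250 bases upstream of mouse gene starts, 32.7% held GGGCGG, 22.6% GATAA and 6.02% CACGTG. Among 15 windows of 9 members, 10 held GGGCGG, 1 GATAA and 2 CACGTG. The GATAA match was in another Bcl2l1 start window, not printed here, 40 bases before that start. A match is a letter string and no measured site, and a string missing from these windows says nothing about binding elsewhere at the gene.

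In the siRNA experiment the question was whether the members at 48 h of Dox differed after Oct4 knockdown. Gata6 also had a lower mean under siOct4, at 85.9 ± 26.4 TPM against 121 ± 38.6 TPM under siCTL (SD over 6 libraries). The part of Gata6 in the members' values was not tested. None of the 4 members in this table was called. Of the 6264 tested genes, 2.67% were called, at an adjusted p under 0.05 and a log2 difference over 0.5. In this fit, which left the replicate numbers out, no member had an unadjusted p under 0.05, as 867 genes did. The study tested counts with DESeq2 and reported more changed genes, so a missing call here does not show that a member was unchanged. Same-numbered libraries deviated together (mean correlation 0.33), although some differently numbered pairs did too (up to 0.46, mean -0.06). A fit that took these numbers as a block gave calls for 8.57% of the tested genes, again no member. In that fit 1524 genes had an unadjusted p under 0.05. Bid came nearest. In siCTL replicates 1 to 6 it read 18.1, 15.4, 10.7, 15.1, 15.0 and 14.7 TPM and in siOct4 replicates 1 to 6 14.2, 13.1, 8.22, 9.12, 12.4 and 13.2 TPM. The groups overlapped, although the siOct4 library was the lower in all 6 same-numbered pairs. The mean log2 difference was -0.33 ± 0.19 (SE, limma adjusted p = 0.498), or ± 0.15 with the block (limma unadjusted p = 0.0472, adjusted p = 0.198), with an exact two-sided permutation p of 0.0671 over all ways to divide the 12 libraries into the 2 groups. A paired exact two-sided permutation over the signs of the 6 pair differences gave p = 0.03125, the smallest this design can give. It takes the 6 pairs as independent, which was not tested. Replicates 5 and 6 stood together for Nanog, at 30.7 and 27.2 TPM under siCTL and 33.1 and 32.6 TPM under siOct4. The other libraries read 2.53 to 9.15 TPM under siCTL and 4.25 to 6.95 TPM under siOct4. If pairs were made together, this p-value is too small. These p-values are not adjusted for the 4 members compared. The median difference of all tested genes was itself -0.12 in this comparison, and 0.01 after rescaling by median ratios, where Bid differed by -0.19 (limma adjusted p = 0.602). Marker sums of other cell types moved between these libraries too. Those of the 4 trophectoderm genes in this table lay between 10.8 and 21.8 TPM in siCTL and between 13.4 and 81.0 TPM in siOct4. The highest were siOct4 replicates 5 and 6 (81.0 and 77.8 TPM). Those of 9 PrE genes lay between 2346 and 6423 and between 1545 and 3286 TPM. Those of 5 fibroblast genes lay between 26.1 and 210.0 and between 27.8 and 213 TPM. From siCTL to siOct4 these fibroblast sums fell in replicates 1, 2 and 4 (188 to 62.3, 175 to 57.4 and 210.0 to 27.8 TPM). They rose in replicates 3, 5 and 6 (26.1 to 35.5, 37.0 to 213 and 44.3 to 191 TPM). The part of these marker sums in the members' values was not tested.

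Bcl2l11 averaged 6.998 ± 4.40 TPM under siCTL, against 6.41 ± 4.03 TPM under siOct4 (SD over 6 libraries; log2 difference -0.12 ± 0.41, limma adjusted p = 0.936). Its spread went with the replicate numbers, since replicates 5 and 6 read 13.2 and 11.8 TPM in siCTL and 10.9 and 11.5 TPM in siOct4, while the other 4 libraries of each group read between 2.29 and 6.99 TPM. Bad averaged 25.6 ± 6.43 TPM under siCTL, against 22.3 ± 6.47 TPM under siOct4 (log2 difference -0.21 ± 0.22, limma adjusted p = 0.752), lower in 4 of 6 pairs. Bcl2l1 had 39.0 ± 8.87 TPM and 45.4 ± 11.3 TPM (log2 difference 0.21 ± 0.19, limma adjusted p = 0.720), higher in 5 of 6 pairs. The 95% intervals of these differences were -0.99 to 0.76 for Bcl2l11, -0.68 to 0.26 for Bad and -0.21 to 0.62 for Bcl2l1. With the block they were -0.49 to 0.26, -0.60 to 0.17 and -0.10 to 0.52, so that for Bad and Bcl2l1 they still reached past the 0.5 limit and for Bcl2l11 they did not. Set beside the 48 h libraries of the induction table, which were quantified as a separate table, siCTL levels were 14.8 against 13.3 TPM for Bid, 6.998 against 7.12 TPM for Bcl2l11, 39.0 against 40.5 TPM for Bcl2l1 and 25.6 against 55.0 TPM for Bad. For Bad the siCTL libraries lay between 20.6 and 37.7 TPM, all below the lowest 48 h induction library (45.0 TPM). The 0 h mean of Bad was 21.7 TPM, so its higher 48 h level was not repeated to that extent under siCTL. The reason was not tested.

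**Figure D4:**
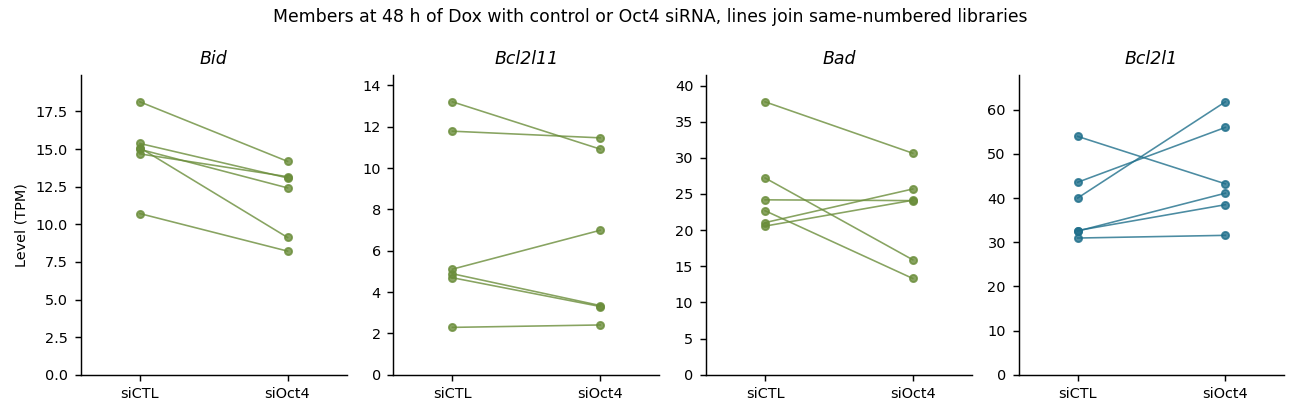
Level in TPM of Bid, Bcl2l11, Bad and Bcl2l1 at 48 h of Dox in the 6 siCTL and 6 siOct4 libraries; points are libraries, lines join libraries of the same number, and each axis starts at 0. For Bid all 6 lines go down, and for Bcl2l11 a pair of lines stands apart from the others in both groups.

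The wider pathway was followed through 7 lists with 72 genes in all, of which 66 were tested in the induction table. None of the 66 was called at 16 or 24 h. The 48 h cells had 10 called list genes (15.2%, beside 16.4% of all tested genes), the 72 h cells 15 (22.7%, beside 26.2%) and the 96 h cells 24 (36.4%, beside 29.5%). The 168 h cells had 29 (43.9%, beside 39.1%), of which 21 were higher and 8 lower, and XEN cells had 27 (40.9%, beside 37.6%), of which 18 were higher and 9 lower. The shares of list genes thus stood near those of all genes. Of 11 genes of the apoptosome and caspases, 7 were called at 168 h, where 39.1% of all genes were, all 7 higher, with a median log2 difference of 1.11 (0.09 over all genes). Casp8, the initiator caspase that cleaves BID, went from 0.974 ± 0.18 TPM at 0 h to 16.1 ± 0.33 TPM at 168 h, while Bid itself was at its lowest there. Apaf1, the scaffold that cytochrome c assembles into the apoptosome, went from 12.5 ± 3.26 TPM to 86.5 ± 19.6 TPM (SD, n = 3 each). Both were lower in XEN cells than at 168 h, at 6.32 ± 0.18 and 33.9 ± 0.49 TPM (SD, n = 2).

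Of 17 genes of the p53 axis, 10 were called higher and 3 lower at 168 h (39.1% of all genes in either direction), with a median log2 difference of 1.20. Trp53, the gene of p53, was among the 3 and went from 386 ± 9.73 TPM to 62.1 ± 9.74 TPM, and Mdm4, a p53 inhibitor, went from 129 ± 35.8 TPM to 61.6 ± 9.73 TPM. The p53 targets Cdkn1a, which encodes the cell cycle inhibitor p21, and Tnfrsf10b, a death receptor, went from 40.9 ± 3.68 to 341 ± 78.8 TPM and from 11.4 ± 0.78 to 78.1 ± 19.0 TPM (SD, n = 3 each). Among the members, the p53 targets Bbc3, Pmaip1 and Bax were not called at this time.

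Of 10 tested genes among 15 further BCL2 family genes, Bcl2l2, the gene of the survival protein BCL-W, was called higher at 168 h (8.26 ± 0.55 to 18.6 ± 3.69 TPM), and Bok (11.1 ± 1.23 to 1.12 ± 0.41 TPM), a BAX-like effector, and Bcl2l14 (7.82 ± 0.74 to 0.264 ± 0.11 TPM) were called lower. Of 9 stress and FOXO regulators of BH3-only genes, 5 were called, beside the same 39.1% of all genes. Foxo3, a transcription factor known to activate Bcl2l11, went from 13.9 ± 1.89 to 37.8 ± 5.38 TPM and Ddit3, the stress factor CHOP, from 12.9 ± 2.72 to 73.0 ± 5.90 TPM, whereas Myc went from 29.9 ± 4.33 to 1.84 ± 0.38 TPM and Trib3 from 39.6 ± 1.91 to 11.1 ± 1.65 TPM (SD, n = 3 each). Myc was at 18.3 ± 1.45 TPM in XEN cells (SD, n = 2). Of 8 inhibitors of apoptosis and their antagonists 1 was called, Septin4, under the 5 TPM minimum set for giving its values, and none of the 5 tested genes for turnover of MCL1 and BIM or of the 6 mitochondrial partners was. Without the minimum on size (75.0% of all genes), Xiap (log2 difference 0.87), Birc3 (0.70), Birc5 (0.26) and Birc6 (0.26) had also risen at 168 h. Of the turnover genes, Fbxw7 (0.50) and Btrc (0.47) had risen and Usp9x (-0.40) had fallen. Among the mitochondrial partners Opa1 (0.28) had risen, and Mtch2 (-0.81), Vdac1 (-0.55) and Vdac3 (-0.54) had fallen. With siOct4, 2 of 38 tested list genes were called (5.26%, beside 2.67% of all tested genes in this comparison). Bik, a BH3-only gene, was at 1.65 TPM against 0.438 TPM in siCTL (log2 difference 0.88 ± 0.20, limma adjusted p = 0.0337). Its siCTL mean was under the 1 TPM minimum, near the floor. Bcl2l14 was at 2.63 against 5.53 TPM (log2 difference -0.82 ± 0.20, limma adjusted p = 0.0358).

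**Figure D5:**
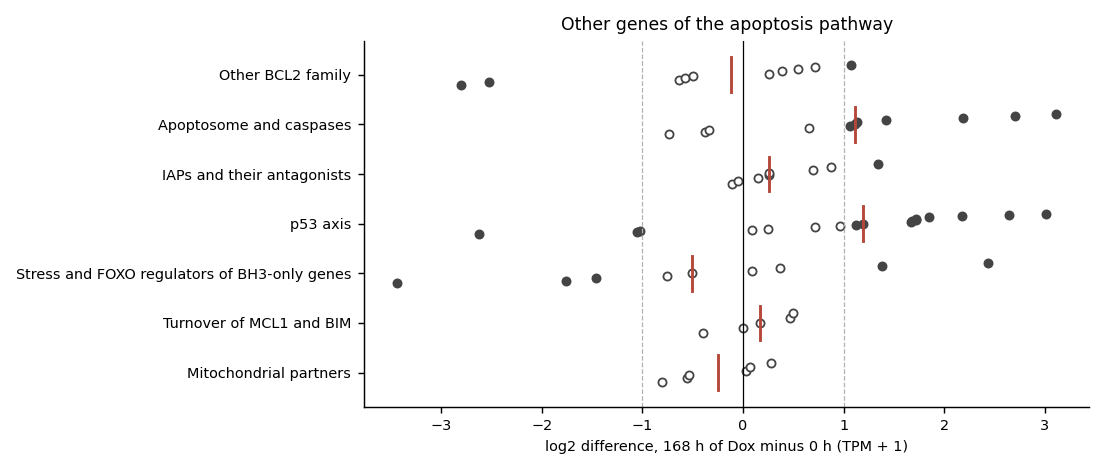
Difference between 168 h and 0 h on the log2(TPM + 1) scale for every tested gene of the 7 pathway lists; each circle is a gene, filled where called, red bars are list medians and dashed lines mark a difference of 1. The filled circles of the apoptosome and caspase list all lie on the right, at values above 1, and the p53 list holds called genes on both sides.

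The 3 members with the widest range of group means were Bcl2l11 (2.82 on the log2 scale between 16 h and XEN), Bid (2.61 between 16 and 168 h) and Bad (1.71 between 0 and 96 h). Over the 8 group means, the tested genes most like Bcl2l11 were Rragd, a Rag GTPase of nutrient sensing (Pearson r = 0.997), Tdrkh (r = 0.993) and Ccdc92b (r = 0.992). Those most like Bid were Bckdhb, of branched-chain amino acid breakdown (r = 0.997), the long non-coding RNA Dancr (r = 0.996) and Anp32e, a histone H2A.Z chaperone (r = 0.995), all of which, like Bid, had a lower mean at 168 h than in XEN cells. Those most like Bad were Cyb561d2 (r = 0.991), Washc3 (r = 0.989) and Elovl1, a fatty acid elongase (r = 0.988). These correlations describe 8 points from the same libraries and carry no test.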

How the data were processed

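Stranded poly(A) libraries were aligned to mm10 with STAR and quantified with RSEM by the authors, who deposited TPM values per gene. Per the labels, bcl2fastq and cutadapt were also used, and versions and annotation are not given in the sources used here. Outliers found by principal component analysis were omitted by the authors; what these were is not given in the sources used here. The siRNA table used here sums to 274527 to 355895 TPM per library, so it holds part of the transcriptome. All sample columns were matched by name.

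The members and gene lists were chosen with earlier results of these data known. Symbols on several rows were represented by the row of highest mean. Values were taken as log2(TPM + 1), which understates changes of low genes; genes with a group mean of at least 1 TPM in a group were fitted with limma 3.58.1 in R 4.3.3 (empirical Bayes with trend and robust options, 1 coefficient per group, all 23 induction or all 12 siRNA libraries together), with Benjamini-Hochberg adjustment. Calls required an adjusted p under 0.05 and an absolute log2 difference over 1, or over 0.5 for siRNA, limits the study used. The fit was tested on simulated data. The study describes independent replicates, but the labels name no cultures, so p-values measure the spread between these libraries, which may be technical. The exact permutation test used scipy 1.17.1; its paired form was added after seeing the data.

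Deviations of same-numbered siCTL and siOct4 libraries from their group means correlated at 0.24 to 0.71 in all 6 pairs (mean 0.33). Differently numbered pairs had a mean of -0.06, but 10 of 30 were over 0.1 and the highest was 0.46. The numbers were taken to pair these libraries, but they do not single out each pair. The pairing comes from the data, not the labels. Named genes were all members, the 2 largest called rises and falls at 168 h per list with at least 5 TPM in a compared group, list genes called with siOct4, and the 3 genes most like each of the 3 members of widest range. For the lists of apoptosis inhibitors, turnover genes and mitochondrial partners, genes that had changed at 168 h were named too. Positions are from GENCODE M21 and promoter sequences from RefSeq. Alternatives were another scaling, pseudocount, filter, thresholds, a replicate block, a fit of only the compared groups and libraries left out.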

Additional observations from a re-analysis of the deposited data

How the results depend on the processing

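The 4 members called at 168 h and in XEN cells against 0 h (Bad, Bcl2l1, Bid and Bcl2l11) and Bid in XEN cells against 168 h were called under every alternative listed with the methods and without replicate 3 of 168 h, a library left out after seeing the data, and at 72 h the count of 3 also held without replicate 3 of that time. Outside the steps between times, the number of called members changed by over 1.5 times only where the fold minimum was dropped, to 3 and 5 for 16 and 24 h, 8, 7 and 8 for 48, 72 and 96 h, and 8 and 5 for XEN cells against 0 and 168 h, and for 48 h without replicate 3, to 5. Leaving out a replicate number gave 2 to 5 called members at 48 h and 3 to 4 at 96 h, 0 to 1 for the 24 to 48 h step and 0 to 1 for the 48 to 72 h step, and the same count as with all libraries in the other comparisons; the cause was not tested. Deviations of same-numbered induction libraries correlated over 0.1 in 16 of 77 pairs (mean 0.03), against 7 of 154 differently numbered pairs. This was short of the every-pair rule for pairing, although fibroblast marker sums were mostly highest in replicate 3. Of these markers, Thy1 was highest in replicate 3 of every time course group. It read 13.4 to 34.9 TPM there, against 1.20 to 4.75 TPM in replicates 1 and 2. Here the replicate block left 0, 0, 3, 3, 4 and 4 called members at the 6 times. It left 4 in XEN cells against 0 h and 1 against 168 h. With siOct4, where the numbers were taken as pairs, it left 0.

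Of 1573 member values under other settings, 26 had the opposite sign, none of them for a difference that passed the test with all libraries. Rescaling by median ratios turned Bcl2l11 with siOct4 to 0.0043, Bbc3 in XEN cells to -0.0017 and Pmaip1 at 168 h to -0.14. For XEN cells against 168 h it turned Bcl2l1 to 0.16, Bad to 0.12 and Bax to 0.050. Without replicate 3 of every group, Bbc3 from 72 to 96 h went from 0.0024 to -0.39 (limma adjusted p = 0.0113). Leaving out each replicate number in turn gave Bbc3 in XEN cells -0.14 to 0.15, Pmaip1 at 168 h -0.30 (without replicate 3, adjusted p = 0.00318 by limma) to 0.26 and Bak1 at 168 h -0.031 to 0.033, and without replicate 3 of 168 h alone Pmaip1 was -0.16. Without replicate 3 of 72 h, Bbc3 at 72 h went from -0.20 to 0.056, Pmaip1 from -0.08 to 0.090 and Bad from 48 to 72 h from 0.10 to -0.037. That rescaling moved the median of all genes at 168 h from 0.09 to -0.05, and with siOct4 it raised the calls over all genes from 167 to 297, and the replicate block raised them to 537, none a member; leaving out replicates gave 66 to 240. TPM values hide read depth, so the precision of low genes such as Bcl2 is unknown.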
